A study of Arabidopsis thaliana with 12 samples.

Results

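Binding near the 9 MIR165 and MIR166 genes of Arabidopsis thaliana and near AGO10 was described from 6 ChIP-seq peak lists. The members are MIR165A, MIR165B, MIR166A to MIR166G and AGO10, 10 of the 37899 nuclear genes in the gene table used, chosen by name for their role; the rule uses no measured value, though the choice was made with earlier results of these data known. A peak belonged to a member when its summit, the position of highest signal in the peak, lay in the locus or within 3000 bp of it. By this rule 15 of the 38038 nuclear peaks belonged to 5 members. The plants were whole transgenic seedlings of the Ler ecotype, 10 days old and grown in long days. All lines carried the locus of 1 protein with a 2xYPet-3xHA tag at its C-terminus, and the tagged protein was pulled down with an antibody against GFP, which recognises the yellow fluorescent protein YPet. The lines carried REVg:2xYPet-3xHA, PHBg:2xYPet-3xHA, PHVg:2xYPet-3xHA, ICU4g:2xYPet-3xHA, ATHB8g:2xYPet-3xHA or TPLg:2xYPet-3xHA. REV, PHB, PHV, ICU4 and ATHB8 are the HD-ZIPIII transcription factors and TPL (TOPLESS) is a co-repressor. Every pull-down was compared with the input of the same line, per the series text, and gave 1 list. No group had a second list and no line without a tag was analysed here. The values therefore carry no replicate error, and no difference between proteins could be tested. Signal from all tissues of a seedling was pooled, so binding in few cells and weak binding in many cannot be told apart.

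The microRNAs miR165 and miR166 are near-identical small RNAs that pair with a site in the transcripts of all 5 HD-ZIPIII genes and cause their cleavage. They act on the lower (abaxial) side of young leaves and around the vascular tissue, which confines HD-ZIPIII activity to the upper (adaxial) side, the meristem and the vasculature. AGO10, also called ZWILLE or PINHEAD, is an ARGONAUTE protein that captures these microRNAs and keeps them from the AGO1 complexes that cleave the transcripts, so that it favours HD-ZIPIII activity. A peak of an HD-ZIPIII protein at these loci would thus lie at genes that control the HD-ZIPIII transcripts themselves, which is why they were looked at together.

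HD-ZIPIII summits lay near 4 of the 10 members, namely MIR165A, MIR166A, MIR166G and AGO10, and TPL summits near MIR166A, MIR166E, MIR166G and AGO10. Among the 9 microRNA members, 3 had an HD-ZIPIII summit, while 35.3% of all 326 microRNA genes and 50.1% of all 27444 protein-coding genes had one within the same distance. For ICU4 there was a summit near 4 members, 3 of them microRNA genes, against 28.2% of all microRNA genes and 43.5% of all protein-coding genes. TPL also had one near 4 members, again 3 of them microRNA genes, against 43.6% and 60.1%. REV, PHB and PHV each had a summit near 1 member, MIR166G. The share of all microRNA genes was 8.9% in the PHB list, 7.98% in the PHV list and 7.67% in the REV list. Of all protein-coding genes, 15.9%, 15% and 12.3% had a summit in these lists. ATHB8 had none at any member, where 7.06% of all microRNA genes and 7.06% of all protein-coding genes had an ATHB8 summit. Taking all 6 lists together, 5 members had a summit, beside 54.9% of all microRNA genes and 69.8% of all protein-coding genes. Protein-coding genes are longer than the annotated microRNA loci, which spanned 105 bp (MIR166F) to 182 bp (MIR165B), while AGO10 spanned 6164 bp. The same window thus covers more sequence at a long gene, and the part of gene length in the shares was not tested. The counts of members were near the shares of their own class, and nothing in them sets the MIR165 and MIR166 genes apart.

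**Figure D1:**
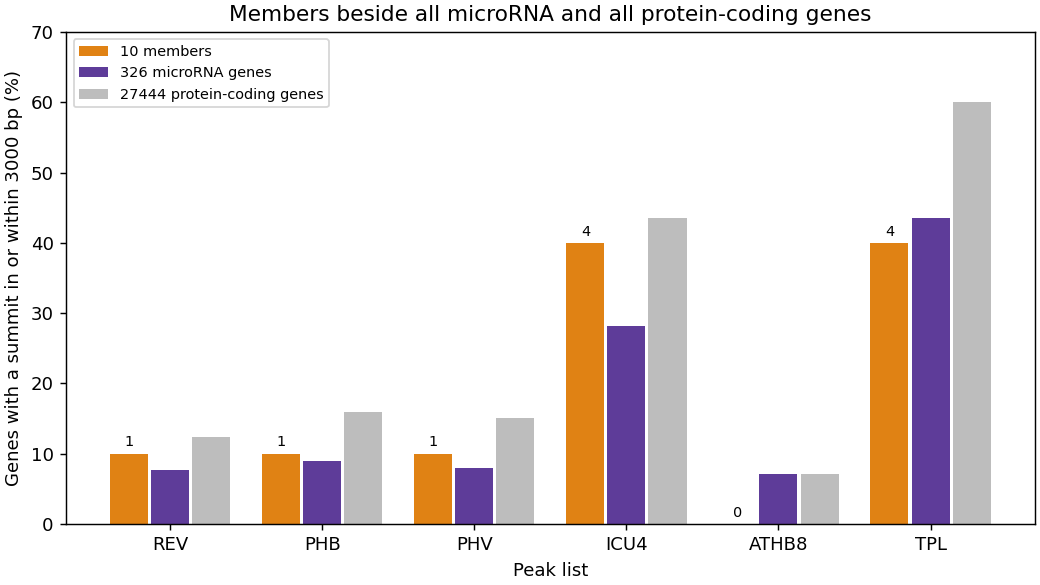
Bars give the percentage of genes with a summit in or within 3000 bp in each of the 6 peak lists, for the 10 members, all 326 microRNA genes and all 27444 protein-coding genes, and the number above each member bar is the count of members. The ICU4 bar of the members, at 4 genes with AGO10 included, lies above that of microRNA genes and close to that of protein-coding genes. The TPL bar, also at 4 genes, lies below both, and ATHB8 has no member.

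MIR166G (AT5G63715), on chromosome 5, had peaks of 5 of the 6 proteins at 1 site. Fold enrichment, the authors' ratio of immunoprecipitated signal to local background, was 4.90 in the ICU4 list, 3.996 in the PHB list, 3.83 in the PHV list, 3.43 in the REV list and 3.60 in the TPL list. These values, and a peak's rank by them, are read only within each list, since the lists differ in length. The ICU4 peak was above 89.6% of ICU4 peaks. The PHB peak was above 83.3% of the PHB list and the PHV peak above 77.8% of the PHV list. The TPL peak was above 57.6% of its list and the REV peak above 35.4% of its own. The 5 summits fell within 41 bp of each other, from 25503392 (TPL) over 25503396 (PHB), 25503404 (REV) and 25503428 (ICU4) to 25503433 (PHV). The peaks themselves differed in width, from 58 bp for REV (25503395 to 25503452) to 410 bp for ICU4 (25503178 to 25503587) and 458 bp for TPL (25503146 to 25503603). All 10 pairs of these peaks overlapped, and every narrower peak lay wholly within the wider one. The summits were 1365 to 1406 bp from MIR166G, on its lower-numbered side, but only 369 to 410 bp from the protein-coding gene AT5G63710. A protein-coding gene was therefore nearer for all 5 peaks, and the site lies in the stretch between the pair of genes. The gene table carries no strand, so whether the site is upstream of MIR166G, of AT5G63710 or of both was not determined. The nearest ATHB8 summit was 94717 bp away.

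MIR166A (AT2G46685), on chromosome 2, was the only microRNA member with a summit for which no protein-coding gene was nearer. The ICU4 peak ran from 19175860 to 19176206 and its summit, at 19176119, lay inside the annotated precursor locus. A TPL peak from 19175644 to 19176406 contained it whole, with its summit 133 bp outside the locus at 19175975, 144 bp from the ICU4 summit. The nearest protein-coding gene to both, AT2G46690 (SAUR32, a small auxin-upregulated RNA gene), was 4586 and 4730 bp away. The TPL peak had a fold enrichment of 4.53 and a −log10 q of 44.5 and was above 70.2% of TPL peaks. The ICU4 peak had 2.77 and 3.68 and was above 23.5% of ICU4 peaks. MIR166A was thus 1 of 9 microRNA members with such a summit, beside 6.44% of all 326 microRNA genes in the ICU4 list and 12.3% in the TPL list. A further TPL peak, 2723 bp on the higher-numbered side with its summit at 19179000, was among the weakest of its list. Its fold enrichment of 1.73 exceeded 2.02% of TPL peaks, and both AT2G46690, at 1705 bp, and the non-coding locus AT2G09750, at 82 bp, were nearer to it. REV, PHB and PHV had no summit within 15988 bp of MIR166A, the distance of the nearest PHV summit.

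AGO10 (AT5G43810), on chromosome 5, had 2 sites, each with an ICU4 peak and a TPL peak and none with REV, PHB, PHV or ATHB8. The first site was at the lower-numbered edge of the gene. There the ICU4 peak ran from 17610678 to 17610938 with its summit 2 bp outside the gene at 17610742, and the TPL peak from 17610579 to 17611084 with its summit inside the gene at 17610823. The second site was 2501 bp (ICU4) and 2529 bp (TPL) outside the same edge, with the ICU4 peak from 17608140 to 17608338 and the TPL peak from 17608072 to 17608379. The summits of both proteins were 28 bp apart at the outer site and 81 bp apart at the gene edge. By fold enrichment, the proteins ranked these sites in opposite order. In the ICU4 list the outer site was the stronger, at a fold enrichment of 3.93 (above 77.5% of ICU4 peaks) against 2.82 (above 30.2%) at the edge. In the TPL list the edge was the stronger, at 3.997 (above 63.8% of TPL peaks) against 2.67 (above 35.2%) at the outer site. ICU4 coverage at the summit was close, 30 at the outer site and 27 at the edge. The local background, taken as coverage plus 1 over fold enrichment, was 7.90 and 9.93. For TPL the coverage was 76.56 at the outer site and 102.93 at the edge, and the background 29.0 and 26.0. The part of local background in the opposite order was not tested. No protein-coding gene was nearer than AGO10 for any of these 4 peaks, the next one being AT5G43822 at 7917 bp or more. Beyond the 3000 bp limit on the same side, 2 ATHB8 summits lay 5310 and 5416 bp from AGO10, with fold enrichments of 2.69 and 3.31, and 415 and 309 bp from the pseudogene AT5G43800. The nearest PHB summit was 11152 bp away, the nearest PHV summit 13667 bp and the nearest REV summit 21938 bp.

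**Figure D2:**
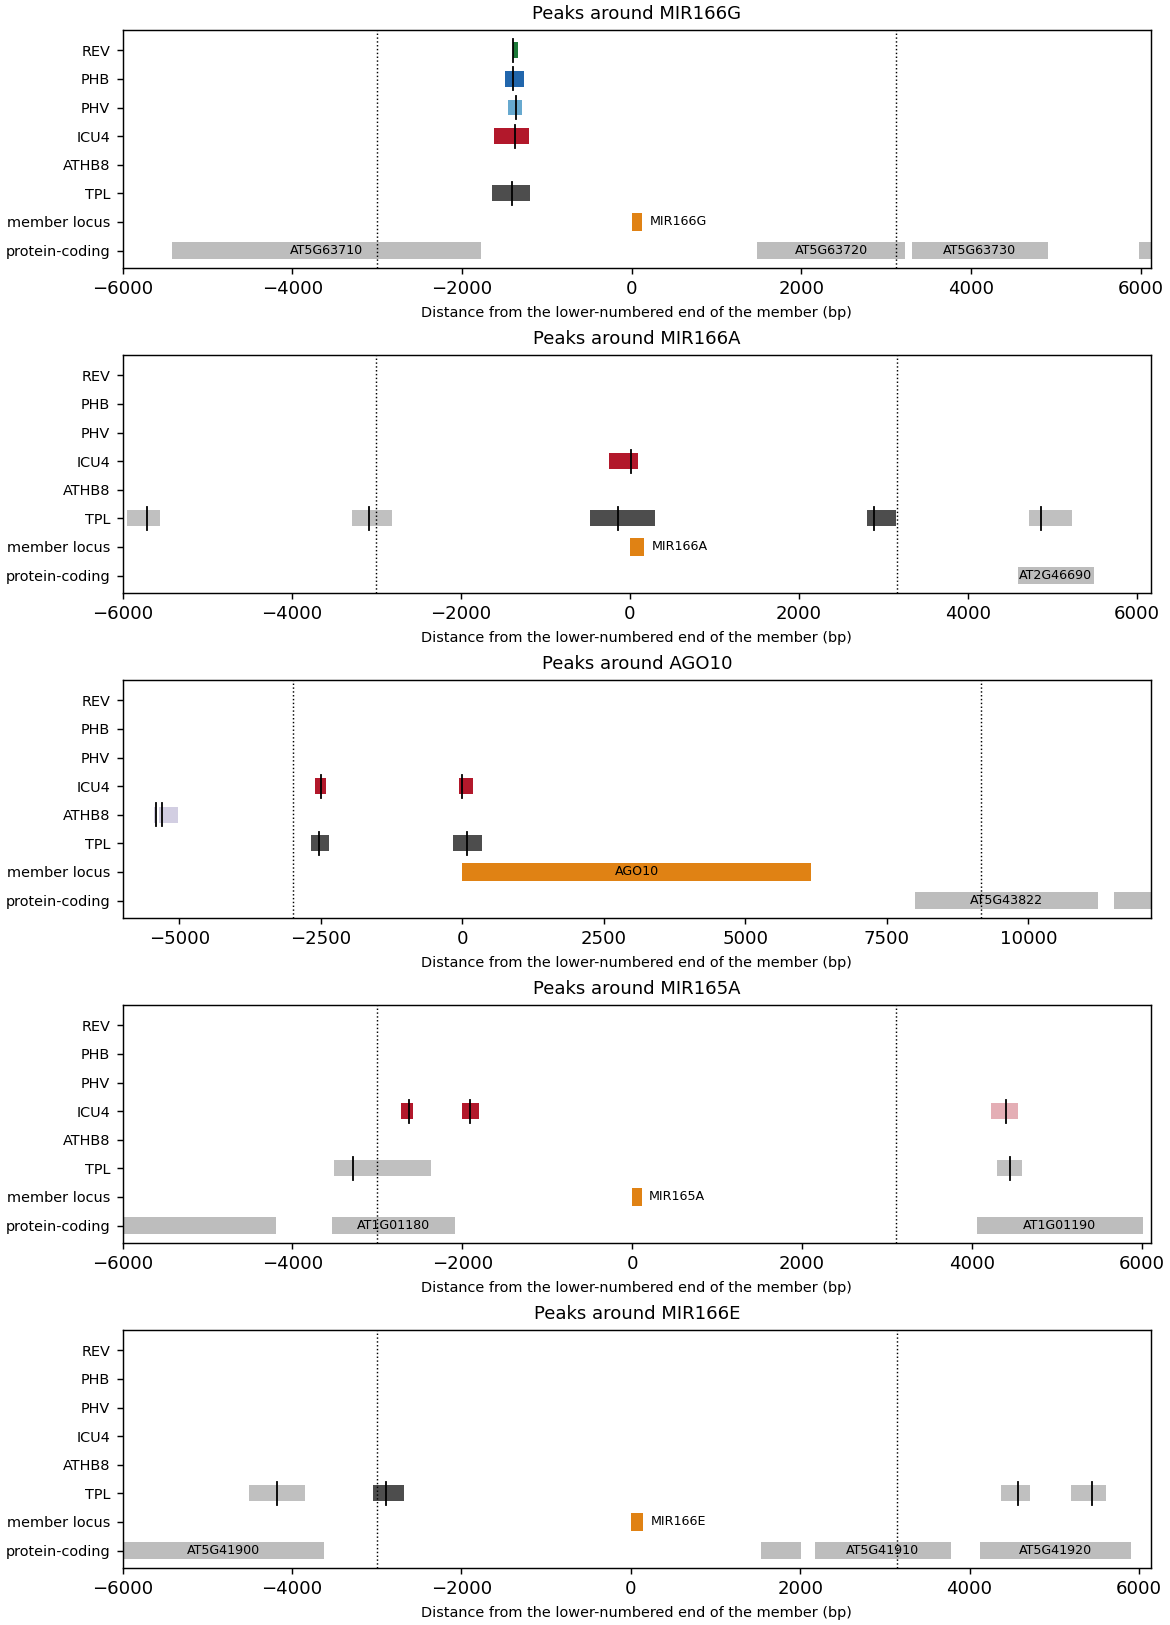
Each panel shows 1 of the 5 members with a peak: horizontal bars are peaks of the 6 lists, black ticks are summits, the orange bar is the member, grey bars are protein-coding genes, dotted lines mark 3000 bp from the member and pale peaks have their summit beyond it, all against distance in bp. The 5 peaks at MIR166G stack on 1 site next to AT5G63710, the ICU4 and TPL peaks of MIR166A sit on the locus, and AGO10 has paired ICU4 and TPL peaks at its edge and 2501 to 2529 bp outside it.

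MIR165A (AT1G01183), on chromosome 1, had 2 ICU4 peaks and no other peak with its summit within the limit. Their summits, at 76298 and 77020, were 2629 and 1907 bp from the locus, and their fold enrichments of 2.79 and 2.66 were above 24.1% and 16.8% of ICU4 peaks. The protein-coding gene AT1G01180 was nearer to both, the first summit being inside it and the second 175 bp outside. MIR165A itself lies within the span of a longer non-coding locus, AT1G08765, which neither summit reached. A TPL peak from 75417 to 76558 reached inside the limit and covered the ICU4 peak with its summit at 76298. The summit of this TPL peak was outside the limit, 3283 bp from MIR165A. MIR166E (AT5G41905), on chromosome 5, had a single TPL peak at the limit of the window. Its summit, at 16772624, was 2896 bp away, its fold enrichment of 2.53 was above 29.9% of TPL peaks, and the protein-coding gene AT5G41900 was nearer at 725 bp. This was the most distant summit kept, and the next ones outside were a TPL summit 3083 bp from MIR166A (fold enrichment 4.22), a TPL summit 3283 bp from MIR165A (3.15) and an ATHB8 summit 3361 bp from MIR166F (3.10). The last of these was inside SUC6, a sucrose transporter family gene. The TPL summit 3083 bp from MIR166A had no protein-coding gene nearer, so a slightly wider window would give MIR166A another TPL peak of its own.

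The other 5 members, MIR165B, MIR166B, MIR166C, MIR166D and MIR166F, had no summit of any protein within 3000 bp. The nearest HD-ZIPIII summit was 11981 bp from MIR165B, 17264 bp from MIR166C and 15303 bp from MIR166D, and the nearest TPL summits of these 3 were 11411, 12752 and 10791 bp away. MIR166C and MIR166D are 1848 bp apart, so they share a neighbourhood and are not independent members. MIR166B had a pair of peaks farther out, an ICU4 summit at 4751 bp with a fold enrichment of 5.32 (above 91.8% of ICU4 peaks) and a TPL summit at 4778 bp with 8.91 (above 95.5% of TPL peaks). These were stronger within their lists than any peak at a member, and HB-12 (AT3G61890), an HD-ZIP class I transcription factor gene, was nearer to both, at 2062 and 2035 bp. Over all 10 members, the median distance to the nearest summit was 4030.5 bp in the TPL list, 5514.5 bp in the ICU4 list, 17630.0 bp in the PHB list, 17859.0 bp in the PHV list, 19570.5 bp in the REV list and 73418.5 bp in the ATHB8 list. The lists held 12785 TPL, 8964 ICU4, 2790 PHB, 2872 PHV, 5814 REV and 4813 ATHB8 peaks, and the part of list length in these distances was not tested. An absent peak does not show absent binding, since the depth of the libraries is unknown.

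**Figure D3:**
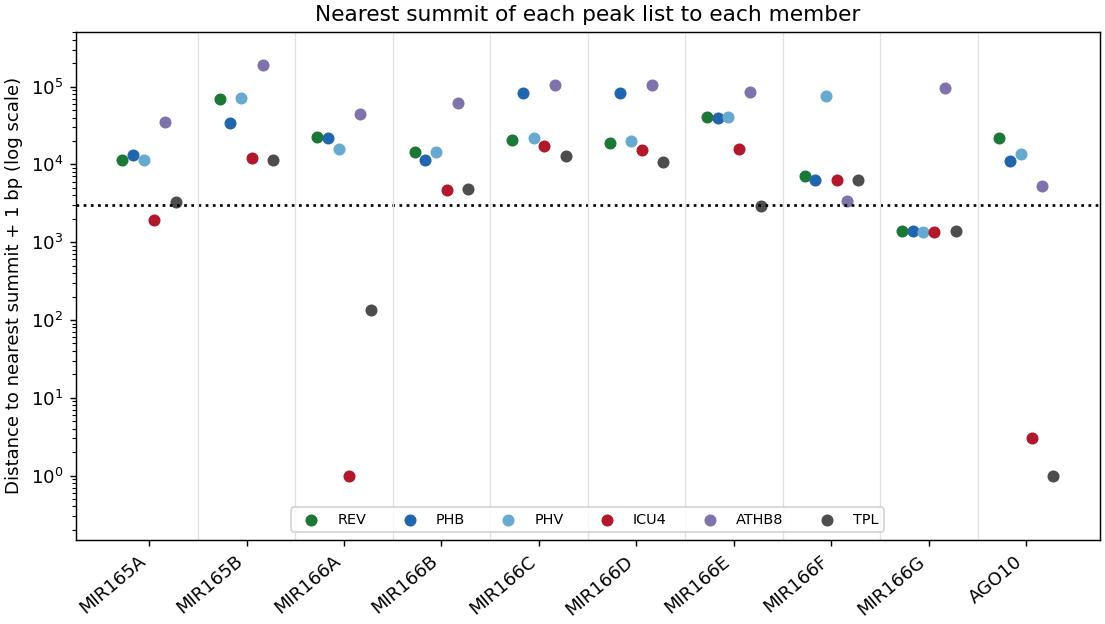
Each point is the distance from a member to the nearest summit of 1 list, plus 1 bp, on a log axis, and the dotted line marks 3000 bp. MIR166G has 5 lists between 1365 and 1406 bp, MIR166A and AGO10 have ICU4 and TPL at or next to the locus, and ATHB8 points lie between 3361 and 190647 bp.

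None of the 15 peaks was in the top 10% of its list by fold enrichment, and 8 were in the lower part, with fewer than 50% of the list's peaks below them. The 6 ICU4 peaks had fold enrichments from 2.66 to 4.90 with a median of 2.80, where the whole ICU4 list had a median of 3.17. The 6 TPL peaks ran from 1.73 to 4.53 with a median of 3.14, against 3.22 for the whole TPL list. The pileup, the authors' coverage at the summit, was 20 and 21 at the ICU4 peaks of MIR165A, 23 at MIR166A, 27 and 30 at AGO10 and 57 at MIR166G, with a median of 25 over the ICU4 list. The local background was taken as the pileup plus 1, divided by the fold enrichment. This quotient had a lowest value shared by 62.2% of ICU4 peaks, and both MIR165A peaks and the outer AGO10 peak were at that value. The ICU4 peak at the AGO10 edge was at 1.26 times the lowest and the one at MIR166A at 1.10 times. At MIR166G the quotient was 1.50 times the lowest in the ICU4 list, 1.44 times in the PHV list, 1.27 times in the PHB list and 1.52 times in the TPL list. In the REV list it was 1.09 times the lowest. The median over all peaks of a list was 1.00 times the lowest for ICU4, 1.18 for PHV, 1.10 for PHB, 1.35 for TPL and 1.00 for REV. The part of this higher local background in the MIR166G peaks was not tested.

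**Figure D4:**
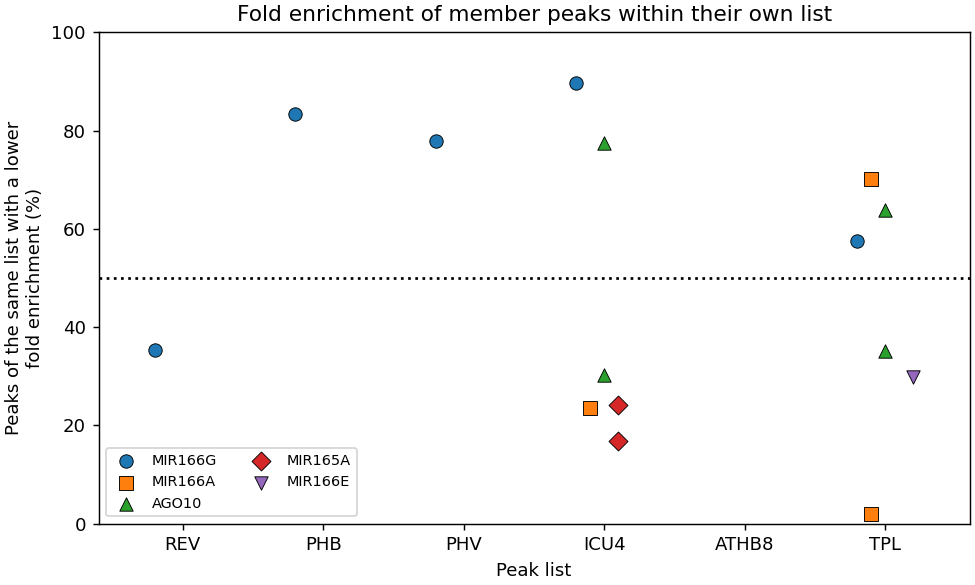
Each symbol is 1 of the 15 peaks at a member, placed by the percentage of peaks in the same list that have a lower fold enrichment, with a dotted line at 50%. The MIR166G peaks of PHB, PHV and ICU4 lie between 77.8% and 89.6%, and the ICU4 peaks at MIR165A and MIR166A lie between 16.8% and 24.1%.

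Overlap with TPL peaks was also counted. Of the 9 HD-ZIPIII peaks, 8 overlapped a TPL peak by at least 1 bp, the exception being the MIR165A peak with its summit at 77020. The REV, PHB, PHV and ICU4 peaks at MIR166G all overlapped the same TPL peak, so they are not separate cases. At MIR165A, the TPL peak that overlapped the other ICU4 peak had its summit outside the 3000 bp limit. For ICU4 this was 5 of 6 peaks, where 68.9% of all ICU4 peaks overlapped a TPL peak. The single PHB, PHV and REV peaks, all at MIR166G, overlapped TPL as well, and the shares over those lists were 76.6%, 66.9% and 29.4%. With so few peaks, these counts say no more than the shares of the whole lists.

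Genes that act with the members were counted in the same way, in 5 lists holding 31 genes. They cover the other ARGONAUTE genes, microRNA biogenesis, the other dicers, the little-zipper (ZPR) genes and a pair of regulators of MIR165 and MIR166 transcription. ICU4 had a summit near 14 of the 31 genes and TPL near 20, beside 43.5% and 60.1% of all protein-coding genes. PHB and PHV each had one near 5, beside 15.9% and 15% of all protein-coding genes, REV near 4, beside 12.3%, and ATHB8 near 1, beside 7.06%. None of these counts was far above the share of all protein-coding genes. Little-zipper genes encode small leucine-zipper proteins that bind HD-ZIPIII proteins and inhibit them. All 4 had an ICU4 summit within 3000 bp, beside 43.5% of all protein-coding genes. TPL had a summit near 3 of these 4, PHB near 2, PHV and ATHB8 near 1 each and REV near none. With 4 genes, these counts are not read as a property of this list. At ZPR3 the ICU4 summit was inside the gene (fold enrichment 3.90) and at ZPR4 890 bp from it (4.69), nearer than any protein-coding gene. At ZPR1 the PHB, PHV, ICU4 and ATHB8 summits, with fold enrichments of 3.17, 4.62, 6.20 and 2.92, were 1327 to 1460 bp from the gene and somewhat nearer to AT2G45460, at 1002 to 1135 bp. The strongest TPL summit within the window of ZPR1 (6.78) was 94 bp from it and 62 bp from DHDPS2. At ZPR2 the strongest PHB, ICU4 and TPL summits within the window, with fold enrichments of 3.40, 2.66 and 2.40, were all inside the neighbouring FLA10. SHR, a transcription factor that with SCR activates MIR165A and MIR166B in the root endodermis, had REV, PHV, ICU4 and TPL summits 1309 to 1360 bp away. Their fold enrichments were 2.93, 3.38, 5.82 and 3.44, and no other protein-coding gene was nearer. The PHB, ICU4 and TPL summits near SCR, with 2.73, 3.42 and 3.73, were all nearer to AT3G54210.

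Among the other 9 ARGONAUTE genes, 4 had an ICU4 summit, 7 a TPL summit and 1 each a REV, a PHB and a PHV summit. Of all protein-coding genes, 43.5% had an ICU4 summit, 60.1% a TPL summit, 12.3% a REV summit, 15.9% a PHB summit and 15% a PHV summit. AGO2 and AGO3 are neighbours and shared an ICU4 peak, with its summit inside AGO3. AGO6, which acts in RNA-directed DNA methylation, was the 1 gene of these with summits of 4 proteins, all 69 to 115 bp from the gene. There the TPL peak had a fold enrichment of 8.20, the PHV peak 4.91, the ICU4 peak 4.31 and the PHB peak 3.02. AGO1, the ARGONAUTE that carries most plant microRNAs and the counterpart of AGO10, had a TPL summit 44 bp away (fold enrichment 5.43) and no HD-ZIPIII summit within 3000 bp. Among the 13 biogenesis genes, 4 had an ICU4 summit, 7 a TPL summit, 2 each a REV and a PHV summit and 1 a PHB summit. The shares of all protein-coding genes are those given above for the same lists. No summit of any list lay near 5 of the 13, where 69.8% of all protein-coding genes had at least 1. DCL1, which cuts microRNAs from their precursors, had REV, PHB, ICU4 and TPL summits 2046 to 2119 bp away, with fold enrichments of 3.28, 3.65, 3.93 and 12.8. The TPL peak was above 99.7% of its list and no other protein-coding gene was nearer. CBP20, a subunit of the nuclear cap-binding complex, and TGH, a processing cofactor of DCL1, had summits of 3 proteins each, and for each a neighbouring gene was nearer, among them GLK2 for CBP20. Of the 3 other dicers, 1 had a TPL summit, beside 60.1% of all protein-coding genes. This was DCL2, and the summit was inside a neighbouring gene.

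MIR166G was 1 of 8 microRNA genes with summits of at least 5 of the 6 proteins, which is 2.45% of the 326, beside 6.16% of all protein-coding genes. MIR5651 had all 6, with the strongest summit of each list inside the neighbouring RDUF1. MIR8166, MIR405b and MIR8182 followed with 5 lists each and ICU4 fold enrichments of 9.24, 9.12 and 7.09, where MIR166G had 4.90. These genes were named because their ICU4 fold enrichments were the highest among the other microRNA genes with 5 lists. They do not stand for that group, which also holds MIR779, MIR843 and MIR164b. At MIR8166 the summits were 1129 to 1158 bp from the microRNA and 1272 to 1301 bp from RTFL17, so the microRNA locus was the nearer, whereas those at MIR405b and MIR8182 were nearer to protein-coding genes. Likeness to MIR166G was measured as the mean absolute difference in within-list percentile over the 5 lists, among the other 6 microRNA genes with summits in exactly these lists. The nearest was MIR843, at 15.7 percentage points, followed by MIR8166 at 19.2 and MIR405b at 19.4. For AGO10 the combination of ICU4 and TPL alone was common, held by 4721 protein-coding genes (17.2%). Likeness used the strongest peak of a gene in each list, which for AGO10 was the outer site for ICU4 and the gene edge for TPL. The genes closest to it, over its 2 lists, were AT2G15880 and MEE14, each at 0.489 percentage points, and AT2G46630 at 0.528. AT2G15880 and MEE14 (AT2G15890) have adjacent locus numbers and the same value, and whether they share the same peaks was not checked.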

How the data were processed

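Chromatin of Arabidopsis seedlings was analysed from 6 peak lists, 1 for each ChIP sample; files of the 6 inputs were not used here. Bowtie2, MACS2 and the build TAIR10 are named in the submitters' processing notes without versions or settings. The series text mentions duplicates; the sources used here do not say whether they were pooled. Per the file headers, the columns hold positions, pileup, fold enrichment, p-value and q-value of every peak. The pileup that the authors deposited is a coverage signal of unstated scale. The p-values and q-values were deposited as −log10 values. The fold enrichment deposited by the authors is a ratio to the local background, and it was read only within its own list. Read depth is unknown.

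Gene names, classes and neighbours came from the RefSeq gene table of TAIR10.1, which gives no strand; its gene coordinates are not printed. Distances run from the summit to the nearer end of a gene and are 0 inside it. Peaks on the 5 nuclear chromosomes were used. Positions are 1-based, since length equalled end minus start plus 1 in every list. A planned search for HD-ZIPIII motifs was not run. The quotient of pileup plus 1 and fold enrichment follows the peak caller's usual definition, which no source here states; values within 0.5% of a list's lowest counted as equal to it.

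No test was run, because each group had 1 list. Members and gene lists were chosen with earlier results of these data known. Named genes were all members, the nearest protein-coding gene of each peak, and the 3 genes most like AGO10 and MIR166G. Up to 4 genes of each list with summits in at least 3 peak lists were also named. Those with most peak lists were taken first, then those with the higher ICU4 fold enrichment. ZPR3, ZPR4, AGO1, AGO2, AGO3, DCL2, HB-12 and SUC6, the neighbours of peaks at genes of the lists, and the non-coding loci beside members were added after their values were seen. AGO8 (AT5G21030) is counted under its locus. Summit assignment was tested on simulated data. Python 3.11.15, pandas 2.3.3 and numpy 2.4.6 were used.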

Additional observations from a re-analysis of the deposited data

How the results depend on the processing

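Counts of members depended on the window, the strength required and the neighbouring genes. With a window of 1000 bp, members with a summit fell to 2 in any list, 2 for ICU4, 2 for TPL and 0 each for REV, PHB and PHV, leaving AGO10 and MIR166A. When a summit counted only where no protein-coding gene was nearer, the counts were again 2 in any list, 2 for ICU4, 2 for TPL and 0 each for REV, PHB and PHV. These were again AGO10 and MIR166A, so MIR166A was the only microRNA gene among them. Of all microRNA genes, 6.44% met this rule in the ICU4 list, 12.3% in the TPL list, 3.07% in REV, 1.84% in PHB and 2.76% in PHV. No such share was computed for protein-coding genes or for all lists together, so the count for AGO10 has none beside it. With a window of 5000 bp, ATHB8 gained 1 member, MIR166F, and the counts rose to 5 for ICU4 (with MIR166B), 6 for TPL (with MIR165A and MIR166B) and 7 in any list. Counting any part of a peak within 3000 bp gave 5 members for TPL, with MIR165A added, and left the other counts unchanged. Peaks at or above their list's median fold enrichment left 3 members in any list, 2 for ICU4 and 0 for REV, and peaks at or above the median −log10 q gave 3, 2 and 0 as well. Lists cut to equal length left 2 members in any list, 2 for ICU4, 0 for REV and 0 for TPL. TPL had the longest list, and the part of list length in this drop was not tested. For the changed windows, strengths and list lengths, no share of all genes is given here. The changes in count at those settings are therefore not read as a property of the members. The 13 overlapping pairs of peaks fell to 5 where 50% of each peak had to be shared, the peaks differing in width, and were 12 with summits within 100 bp. In 3 alternatives chosen after seeing the data, 5 members had a summit without the REV and ATHB8 lists, 4 without the TPL list and 4 without the ICU4 list. Leaving out REV and ATHB8 could not change the count, since ATHB8 had no member and MIR166G, the only REV member, had peaks in other lists. All 3 counts follow from which lists held a summit at each member, so they are no independent check. No replicate could be left out, and unknown depth limits what absent peaks mean. No paired analysis was possible because each group had a single list.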
